A study of Mus musculus with 2 samples.

Results

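PANETH-PRE is a class of ileal crypt cells in the authors' list of cells, read here as Paneth precursors. Its members are the cells with that class name whose barcodes were found in the deposited count matrices, and there were 542 of them among 11562 listed cells, 226 of 5305 in replicate 1 (4.26%) and 316 of 6257 in replicate 2 (5.05%). The exact 95% binomial intervals were 3.73% to 4.84% and 4.52% to 5.62%, and cover counting error only. Both libraries came from wild-type ileal crypts of Atoh1CreER-T2;R26RTom mice, in which tamoxifen switches on a red fluorescent reporter in cells that make Atoh1, and in their later progeny. Tamoxifen was injected at 1 mg/mL in 2 doses with 24 h between them, and 12 h after the second the live red cells of the crypts were sorted and captured. These libraries form 1 group with no control group beside it here, so PANETH-PRE was set against each of the 11 other classes of the same libraries. The sort holds cells that switched Atoh1 on and their offspring, and the labels give neither age nor sex, nor whether each library is a different mouse.

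Paneth cells sit at the crypt base, store alpha-defensins, lysozyme and other antimicrobial proteins in large granules, and supply stem cells with Wnt3, EGF and Notch ligands. They arise from Atoh1-positive secretory progenitors, which also give goblet and enteroendocrine cells, and their maturation needs Wnt signalling, in which beta-catenin joins TCF/LEF factors on DNA, and the factor Sox9. Mmp7, the matrix protease that cuts pro-defensins into active peptides, and several alpha-defensins are known Wnt-dependent genes of mouse Paneth cells. The classes nearest to this branch are named SEC-PRO (secretory progenitors), GP, GOBLET-PRE and PANETH by the authors, and ISC holds their stem cells.

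Promoters of 5 genes are printed because they stand for the different behaviours described later: Mmp7 was nearer to its mature level in PANETH-PRE than the defensins, Defa30 and Defa21 were far from it, Samd5 is a gene of both Paneth classes, and Rnase1 was higher in PANETH-PRE than in PANETH. Sequences are from RefSeq on GRCm38.p6, 5′ to 3′ on the gene's own strand, with 250 bases before and 50 after the transcription start. Capitals mark the TCF/LEF core CTTTGA or its other strand TCAAAG, and the TATA box TATAAA or its other strand TTTATA. The intervals are chr9:7691840-7692139 (plus) for Mmp7, chr8:21134400-21134699 (plus) for Defa30, chr8:21025295-21025594 (plus) for Defa21, chr10:9675159-9675458 (minus) for Samd5 and chr14:51146718-51147017 (minus) for Rnase1.
Mmp7: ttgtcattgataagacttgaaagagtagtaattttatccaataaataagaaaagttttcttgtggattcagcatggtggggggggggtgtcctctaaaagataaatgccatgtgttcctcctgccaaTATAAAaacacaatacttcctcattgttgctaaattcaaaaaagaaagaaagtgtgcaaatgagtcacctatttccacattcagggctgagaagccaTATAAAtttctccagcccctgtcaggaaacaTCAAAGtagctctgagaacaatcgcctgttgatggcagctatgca
Defa30: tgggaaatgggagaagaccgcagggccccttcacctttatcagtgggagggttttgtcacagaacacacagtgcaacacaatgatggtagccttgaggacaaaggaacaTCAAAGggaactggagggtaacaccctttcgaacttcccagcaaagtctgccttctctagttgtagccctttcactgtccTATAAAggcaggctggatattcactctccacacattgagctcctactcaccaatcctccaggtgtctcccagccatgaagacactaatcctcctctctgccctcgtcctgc
Defa21: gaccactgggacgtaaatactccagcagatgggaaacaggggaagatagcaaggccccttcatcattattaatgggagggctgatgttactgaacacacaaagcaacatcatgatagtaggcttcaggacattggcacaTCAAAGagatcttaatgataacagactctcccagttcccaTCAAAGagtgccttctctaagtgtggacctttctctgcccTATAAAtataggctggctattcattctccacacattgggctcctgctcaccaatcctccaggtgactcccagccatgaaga
Samd5: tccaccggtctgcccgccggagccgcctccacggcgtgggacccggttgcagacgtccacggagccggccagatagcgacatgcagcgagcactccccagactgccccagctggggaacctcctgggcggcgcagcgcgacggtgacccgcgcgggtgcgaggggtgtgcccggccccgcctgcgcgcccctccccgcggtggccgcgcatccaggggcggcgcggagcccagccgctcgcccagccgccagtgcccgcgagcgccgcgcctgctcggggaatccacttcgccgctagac
Rnase1: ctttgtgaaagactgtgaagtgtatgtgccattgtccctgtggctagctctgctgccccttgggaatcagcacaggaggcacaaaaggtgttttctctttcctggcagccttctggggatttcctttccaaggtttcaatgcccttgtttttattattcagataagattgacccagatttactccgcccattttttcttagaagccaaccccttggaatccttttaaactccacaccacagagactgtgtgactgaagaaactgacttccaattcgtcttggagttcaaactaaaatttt
The Mmp7 promoter held TATA letters 26 bases before the start and the TCF/LEF core 5 bases after it. Defa21 held the core at positions -111 and -71 and the TATA letters at -31, and Defa30 held them at -141 and -61. Of the 15 alpha-defensin promoters in the table, 12 held the core and 15 the TATA letters, against 16% and 13.6% of all 32851 promoters of this length. These promoters share ancestry, and those of Defa21 and Defa22 differed at 0 of 300 bases. Neither set of letters was found in the windows of Samd5, Rnase1, Habp2, Ang, Lyz1, Itln1, Ang4 and Wnt3, which says only that these letters are not in those windows. A match is a description of the sequence and was not set against binding.

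The class was described by its 3 markers and by markers of other cells. Levels are given as CPM, UMIs (unique molecular identifiers, counted at the 3′ end) normalised to the size of a class sum of a library and scaled between sums, first for replicate 1 and then for replicate 2. Samd5 (ENSMUSG00000060487, chr10:9622936-9675208, minus), which encodes a SAM domain protein, had 260.3 and 254 CPM in PANETH-PRE, 505 and 474 CPM in PANETH and at most 10 CPM in any library of another class. Habp2 (ENSMUSG00000025075, chr19:56287137-56320822, plus), a secreted serine protease, had 210.5 and 185 CPM in PANETH-PRE and 376 and 383 CPM in PANETH. Both genes thus marked both Paneth classes, at a higher level in PANETH. Rnase1 (ENSMUSG00000035896, chr14:51144998-51146785, minus), a secreted ribonuclease, had 769 and 863 CPM in PANETH-PRE, 52.1 and 205 CPM in PANETH, 30.0 and 93.6 CPM in SEC-PRO and 17.5 and 34.6 CPM in GOBLET-PRE. With every cell thinned to 2000 UMIs, Rnase1 was seen in 51.8% and 65.3% of PANETH-PRE cells (76.1% and 82% with all UMIs), against 2.3% and 10.6% of PANETH and 5.51% and 17.1% of SEC-PRO cells. Samd5 was seen in 33.2% and 32.7% of thinned PANETH-PRE cells (63.3% and 54.4% with all UMIs), against 27.2% and 25.1% of PANETH and 1.79% and 2.02% of SEC-PRO cells. The 3 markers were fixed together with the class, so their presence describes it and does not test its name. Of the 3, only Rnase1 was higher in PANETH-PRE than in PANETH.

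Defining markers of enteroendocrine, tuft, enterocyte, immune and stromal cells were low or absent in PANETH-PRE, while some hormone genes and goblet genes were present. The UMIs in replicate 1 and replicate 2 were 0 and 4 for Chga, 0 and 2 for Neurog3, and 8 and 38 for Chgb (enteroendocrine), 2 and 0 for Dclk1 and 3 and 0 for Trpm5 (tuft), and 2 and 4 for Sis and 0 and 0 for Alpi (enterocyte). Ptprc and Cd3e of immune cells and Col1a1 and Col3a1 of stroma had 0 UMIs in both libraries, where a count of 0 allows up to 3. Of 15 enteroendocrine genes outside these markers, 3 were higher and 0 lower than in SEC-PRO, 3 higher and 0 lower than in GP and 2 higher and 1 lower than in PANETH, where 11.7%, 8.8% and 2.79% of all genes were higher. The counts of higher genes were 2, 1 and 1 without the library term. Those higher than in SEC-PRO were Cck, a hormone gene with 3.46 and 4.33 CPM in PANETH-PRE, Pcsk1, a prohormone convertase, and Sct, the hormone secretin, with 305 and 244 CPM in PANETH-PRE, 144 and 141 CPM in SEC-PRO and 95 and 109 CPM in PANETH. Goblet genes were present: Muc2, the gel-forming mucin, had 5091 and 5117 CPM in PANETH-PRE, 10306 and 10421 CPM in GOBLET-PRE and 3072 and 2883 CPM in SEC-PRO. Zg16, a lectin of goblet mucus, had 710.4 and 1178 CPM in PANETH-PRE and 30279 and 21627 CPM in GOBLET-PRE. Within PANETH-PRE, Zg16 was highest among the cells with the largest alpha-defensin share, as given below. Muc2 in PANETH-PRE thus lay between its SEC-PRO and GOBLET-PRE levels, and its difference from SEC-PRO did not pass the test.

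The median PANETH-PRE cell had 6600 UMIs in replicate 1 and 4342.5 UMIs in replicate 2, against 23375 and 12874 in PANETH, 5413 and 3488.5 in SEC-PRO and 6104 and 3369 in GOBLET-PRE. Mitochondrial UMIs made up 2.97% and 2.72% of the median PANETH-PRE cell, against 0.994% and 0.859% in PANETH. Listed cells had at most 3000 genes, which also limits what classes of large cells can hold. The 2 libraries shared 12 barcodes among listed cells, and 1 of these was a PANETH-PRE cell of replicate 1. Scrublet marked 2 of 5305 and 0 of 6257 listed cells as doublets (0.0377% in replicate 1), a share too small for the caller to have worked, and 4.87% and 4.43% of PANETH-PRE cells were among the 8% of cells with the highest scores. Droplets also held free RNA: judged by alpha-defensin UMIs in classes outside the Paneth branch, it was 10.3% of the UMIs in replicate 1 (8.08% to 23.9% by class) and 8.80% in replicate 2 (7.05% to 13.9%). Both shares lie above the planned upper bound for PANETH-PRE, which was 0 in replicate 1 and 8.66% in replicate 2. With the shares read from defensins, free RNA would give 3.4% and 6.42% of the Defa24 UMIs of PANETH-PRE. It would give 0.709% and 0.823% of its Rnase1 UMIs, but 18.8% and 27.3% of its Defa21 and 79.3% and 43.6% of its Mki67 UMIs. The libraries differed for some granule genes within PANETH-PRE itself, since Ang4 had 4315 and 12015 CPM and Mptx2 1813 and 5189.8 CPM.

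Genes of Paneth granules and of the Paneth lineage stood at very different fractions of their PANETH level in PANETH-PRE. These are ratios of class means, and no course over time was measured. The level in PANETH-PRE was divided by that in PANETH of the same library, and the order of genes in this ratio does not depend on the scaling between classes. Mmp7 (ENSMUSG00000018623, chr9:7692090-7699585, plus) stood at 63.9% and 64.3% of its PANETH level in replicate 1 and replicate 2, a difference that did not pass the test. Wnt3, a Wnt ligand of the crypt base, stood at 67.6% and 68.8%, Samd5 at 51.5% and 53.5% and Habp2 at 55.9% and 48.4%, all lower than in PANETH by the test. Lysozyme and the lectins were lower: Lyz1 stood at 13.1% and 22.9% and Itln1, intelectin, at 20.1% and 16.8%. The alpha-defensins spread widely, from Defa17 at 34.5% and 25% and Defa34 at 25.4% and 28.6%, over Defa24 at 14.9% and 12.8%, to Defa30 at 5.37% and 5.25%, Defa22 at 2.83% and 4.36% and Defa21 at 2.12% and 2.81%. Ang4, an antimicrobial ribonuclease, stood at 6.36% and 11.6%, Pnliprp2, a lipase, at 12.8% and 11.2% and the pentraxin Mptx2 at 6.36% and 15.9%. Rnase1, Ccl9, Rnase4 and Ang stood above their PANETH level, at 1478% and 421%, 542% and 433%, 151% and 163% and 158% and 131%. Spink4, a secreted protease inhibitor shared with goblet cells, lay above it in replicate 1 and below it in replicate 2, at 131% and 63%.

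**Figure D1:**
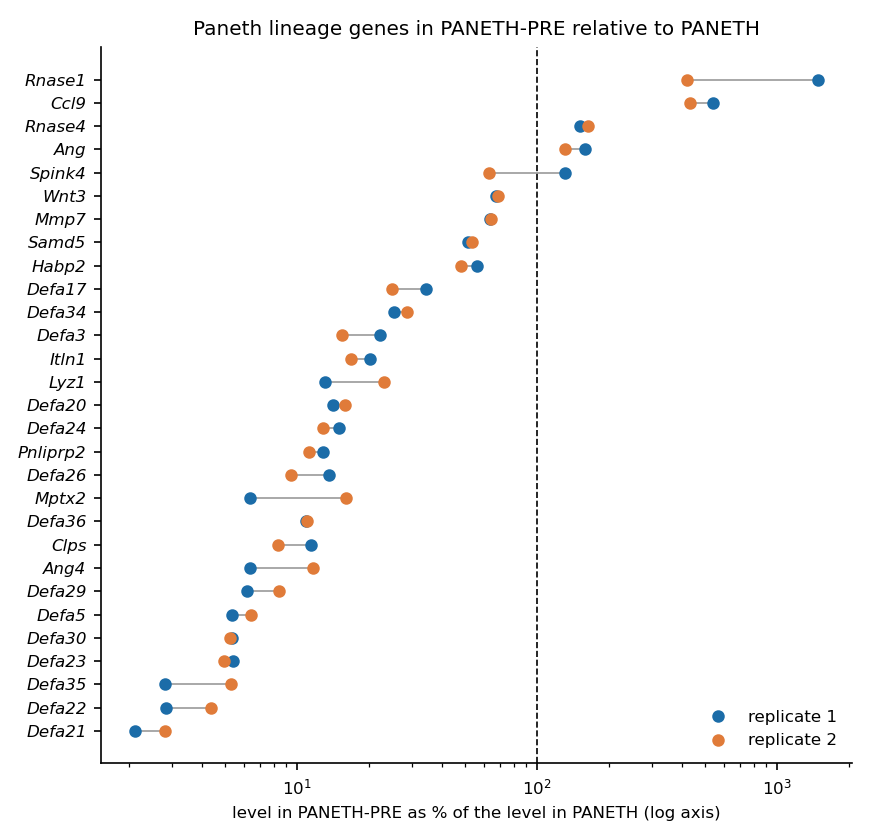
Level of 29 genes in PANETH-PRE as a percent of the level in PANETH of the same library (log axis), with 1 point per library and a grey line joining them. Rnase1, Ccl9, Rnase4 and Ang lie right of 100% in both libraries, Mmp7 and Wnt3 lie between 63.9% and 68.8%, and the alpha-defensins reach down to 2.12%.

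Counted per cell, without scaling between classes, Mmp7 gave 42 and 32.5 UMIs in PANETH-PRE and 51.6 and 38.7 in PANETH. Lyz1 gave 127 and 101 UMIs per PANETH-PRE cell and 762 and 337 per PANETH cell. Defa21 gave 60.9 and 23.9 UMIs per PANETH-PRE cell and 2260.5 and 654 per PANETH cell. Per cell, too, Mmp7 was much nearer to its mature amount than lysozyme or Defa21. Defa24 was the main defensin of PANETH-PRE, with 14.7% and 12.2% of all its UMIs, and Spink4 took 4.97% and 5.73%, Itln1 2.4% and 2.66% and Lyz1 1.69% and 2.0%. Of 39 listed alpha-defensins 24 were in the matrix, 20 passed the filter on low counts and 14 were left once fixed markers were set aside. Reads of near-identical defensin genes cannot be assigned with certainty. The split among single defensins is therefore uncertain, and their sum may be affected too.

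Single PANETH-PRE cells covered almost the whole distance between crypt cells without defensins and PANETH cells. Alpha-defensins made up 8.67% of the UMIs of the median PANETH-PRE cell in replicate 1 and 9.73% in replicate 2, against 70.9% and 65.3% in PANETH and 0.838% and 1.24% over the other classes. The quartiles of PANETH-PRE cells lay at 2.26% and 29.4% in replicate 1 and at 2.58% and 25.8% in replicate 2. In replicate 1, 78 of 226 PANETH-PRE cells (34.5%) lay at or below 3.71%, the 95th percentile of the other classes, and 40 (17.7%) at or above 40.5%, the 5th percentile of PANETH. In replicate 2, 115 of 316 (36.4%) lay at or below 4.86% and 56 (17.7%) at or above 32.2%. The class thus spanned a range, with 108 and 145 cells between these limits. Because alpha-defensins were among the counts from which classes were made, these overlaps describe the class and do not test it.

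**Figure D2:**
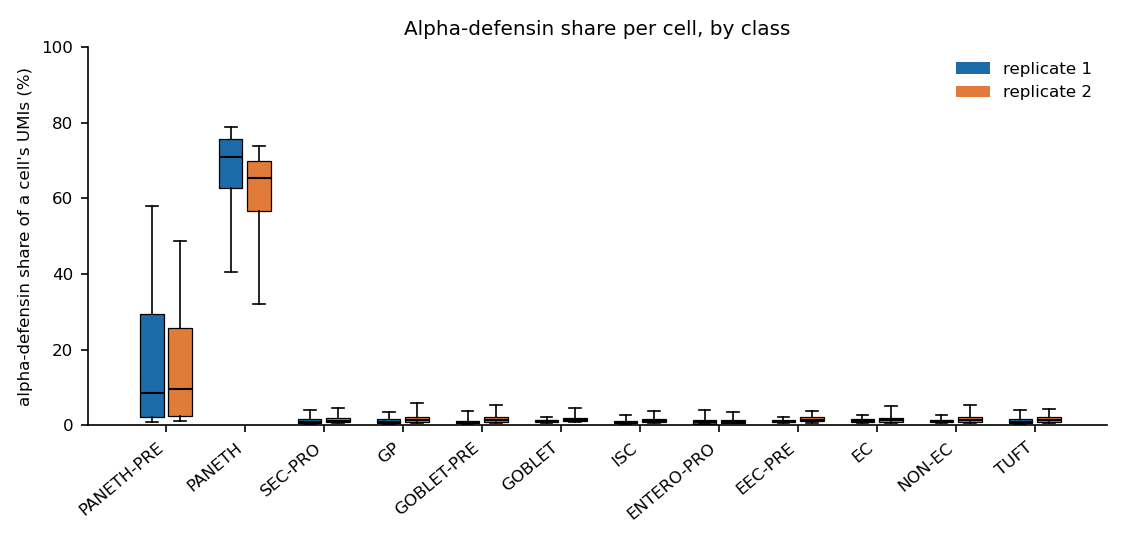
Alpha-defensin UMIs as a percent of all UMIs of a cell, for the 12 classes in replicate 1 and replicate 2; boxes span the quartiles with the median as a line, and whiskers reach the 5th and 95th percentiles. PANETH-PRE has medians of 8.67% and 9.73% and long boxes, PANETH has medians of 70.9% and 65.3%, and all other classes lie near 0.

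PANETH-PRE cells were next put into 4 bins of equal size by their alpha-defensin share, whose medians were 1.23%, 4.25%, 15.6% and 46.8% in replicate 1 and 1.65%, 5.14%, 15.0% and 38.7% in replicate 2. Bins are ranges of one class and not types of cell, and no test was made over them. Levels over bins are CPM of the UMIs outside granule genes, from the lowest to the highest bin, so that the defensins themselves do not dilute other genes. The cells had similar amounts of other RNA: the median UMIs outside granule genes were 5135, 5092, 5677 and 4960 in replicate 1 and 3399, 3529, 3338 and 3474 in replicate 2. Samd5 had 126, 228, 399.9 and 517 in replicate 1 and 117, 193, 358 and 564 in replicate 2. Mmp7 had 4043, 7034, 9869 and 11029 in replicate 1 and 4719, 7919.6, 11160 and 12127 in replicate 2. Mmp7 and Samd5 were thus already present where defensins were lowest, and between the first and last bin they differed far less than lysozyme. Lyz1 had 2266, 5866, 18477 and 73447 in replicate 1 and 3165, 7811, 27794 and 72748 in replicate 2. Ang4 had 334, 539, 2149.5 and 18997 in replicate 1 and 1448, 3633, 11035 and 42191 in replicate 2. Both were by far highest in the last bin, and Pnliprp2 took the same course with 13.2, 79.5, 409 and 2601 in replicate 1. Among goblet genes, Zg16 had 301, 232, 444 and 2608 in replicate 1 and 410, 537, 999 and 3775 in replicate 2. Spink4 was higher in each later bin of both libraries. Tff3 and Agr2 were lowest in the last bin of both, and Muc2 and Fcgbp took no common course in the libraries.

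A second set of genes ran the other way or peaked in between. Rnase1 had 586, 878, 1434 and 794 CPM in replicate 1 and 936, 1011, 1458 and 788 in replicate 2, with its highest value in the third bin of both libraries. Ccl9, a chemokine, had 989, 1438, 1194 and 549.6 in replicate 1 and 1017, 1278, 905 and 592 in replicate 2, with its highest value in the second bin. Both stood lowest or next to lowest in the bin nearest to PANETH. Dll1, a Notch ligand of secretory progenitors, had 103, 51.8, 34.4 and 14.4 in replicate 1 and 63.6, 35.1, 27.8 and 17.5 in replicate 2. Prelp, a matrix proteoglycan, had 76.1, 72.6, 21.9 and 7.18 in replicate 1 and 109.5, 87.8, 45.2 and 21 in replicate 2. These 2 genes were lower in each later bin of both libraries. Sox9 stayed between 297 and 364 CPM in every bin, and Kit, the receptor for stem cell factor, had 314, 297, 253 and 216 in replicate 1 and 371, 393, 275 and 235 in replicate 2. Mki67, a marker of cycling cells, was at most 93 CPM in any bin.

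**Figure D3:**
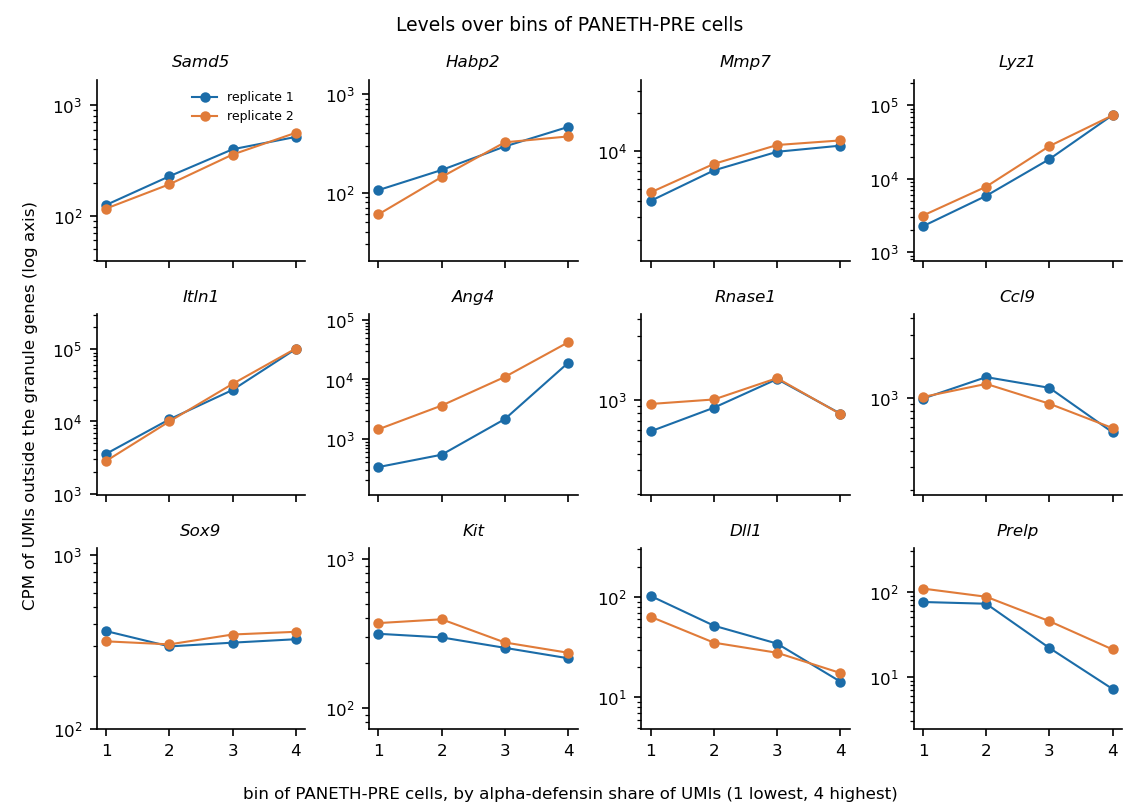
Level of 12 genes in CPM of the UMIs outside granule genes (log axes, each panel with its own range) over the 4 bins of PANETH-PRE cells by alpha-defensin share, with 1 line per library. Samd5, Habp2, Mmp7, Lyz1, Itln1 and Ang4 climb over the bins, Rnase1 is highest in the third and Ccl9 in the second bin, Dll1 and Prelp decline, and Sox9 stays between 297 and 364.

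The comparisons with other classes used UMIs summed per class and library, 24 sums in all, and edgeR's quasi-likelihood test with class and library as terms and a Benjamini-Hochberg threshold of 0.05. Calls describe how the classes differ and are no independent test, because the authors made the classes from the same counts. The p-values measure only how far differences between classes varied between these 2 libraries. This spread was estimated over all 12 classes together. The 55 fixed markers are left out of all counts, which leaves 10946 genes. Against PANETH there were 305 genes (2.79%) higher and 570 (5.21%) lower in PANETH-PRE, and the median absolute log2 difference over 3795 abundant genes was 0.234. Against GP there were 963 genes (8.8%) higher and 622 (5.68%) lower with a median of 0.243, and against GOBLET-PRE 1523 genes (13.9%) higher and 1097 (10%) lower with a median of 0.292. Against SEC-PRO there were 1283 genes (11.7%) higher and 1670 (15.3%) lower with a median of 0.330, and against ISC 2353 genes (21.5%) higher and 2717 (24.8%) lower with a median of 0.540. The choice of scaling moved the split of calls in some comparisons: with TMM factors from all genes it was 356 higher and 429 lower against PANETH, and 1185 higher and 1427 lower against GOBLET-PRE, and with cells thinned to 2000 UMIs it was 145 and 150 against PANETH. By the median difference PANETH and GP were nearest to PANETH-PRE; counts of calls are less comparable, since classes held between 125 and 3783 cells. The median log2 difference over all genes was -0.06 against SEC-PRO, 0.04 against GP, 0.09 against GOBLET-PRE, -0.09 against PANETH and -0.09 against ISC.

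By the median absolute log2 difference over abundant genes the 6 other classes lay at 0.471 (TUFT) to 0.677 (GOBLET), and TUFT, ENTERO-PRO and NON-EC lay nearer to PANETH-PRE than ISC did. There were 1731 genes (15.8%) higher and 1763 (16.1%) lower than in ENTERO-PRO, 1347 genes (12.3%) higher and 1787 (16.3%) lower than in TUFT, 1018 genes (9.3%) higher and 1428 (13%) lower than in EEC-PRE and 1076 genes (9.83%) higher and 2492 (22.8%) lower than in NON-EC. There were 849 genes (7.76%) higher and 1841 (16.8%) lower than in EC and 779 genes (7.12%) higher and 1163 (10.6%) lower than in GOBLET, the smallest classes with 125 and 126 cells. With TMM factors from all genes the split turned to 1363 higher and 1156 lower against EC, 1313 and 1098 against EEC-PRE, 1168 and 897 against GOBLET and 1575 and 1658 against NON-EC, so no direction of the whole is read from these 4 comparisons. That scaling moved the median of all genes by 0.34, 0.16, 0.26 and 0.27 on the log2 scale in the same order.

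There were 11 genes higher in PANETH-PRE than in each of the 11 other classes, in both libraries, at 20 CPM or more. Ccl9 (ENSMUSG00000019122, chr11:83572919-83578636, minus) stood out by its margin, with 865 and 779 CPM in PANETH-PRE, 204 and 315 CPM in GP, the next highest class, and 159.8 and 179.8 CPM in PANETH. Its log2 difference was 1.72 ± 0.23 (SE) against GP and 2.31 ± 0.27 against PANETH. A4gnt (ENSMUSG00000037953, chr9:99612502-99622367, plus), the transferase that caps O-glycans with alpha-1,4-linked N-acetylglucosamine, had 49.2 and 49.8 CPM in PANETH-PRE and 23.7 and 14.4 CPM in PANETH, a log2 difference of 1.40 ± 0.28, and 3.1 and 2.56 CPM in SEC-PRO. A further pair acts on sialic acid: St3gal1, a sialyltransferase, had 74.1 and 95.9 CPM in PANETH-PRE and 54.8 and 31.1 CPM in PANETH, and Gne, the first enzyme of sialic acid synthesis, 152 and 156 CPM in PANETH-PRE and 97.7 and 92.6 CPM in PANETH. Prelp had 36.7 and 54.1 CPM in PANETH-PRE, 19.6 and 26.6 CPM in SEC-PRO and 2.74 and 2.28 CPM in PANETH, so that SEC-PRO was its next highest class and PANETH held almost none. Fxyd3, a regulator of the sodium pump, had 965 and 933 CPM in PANETH-PRE and 581 and 559 CPM in GOBLET-PRE.

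Rnase4 and Ang, secreted ribonucleases, were in the same set, with log2 differences of 0.65 ± 0.11 and 0.52 ± 0.12 against PANETH and 1.75 ± 0.11 and 1.90 ± 0.11 against SEC-PRO. Rnase4 had 659 and 609 CPM in PANETH-PRE and 436 and 374 CPM in PANETH. Ang had 417 and 417 CPM in PANETH-PRE and 265 and 319 CPM in PANETH. Their annotated spans overlap (chr14:51091077-51106151 and chr14:51091150-51102009, both plus) and start from a shared promoter window, so their reads cannot be fully told apart. Rnase1, a marker and so not counted, lies on the other strand of the same chromosome at a distance. Of the rest, Oit1, a secreted protein, had 438 and 394 CPM in PANETH-PRE and 317 and 327 CPM in GP, and Pabpc1, which binds poly(A) tails, had a log2 difference of 0.36 ± 0.09 against PANETH, its next highest class. The call of Fam213a, a redox protein at 0.44 ± 0.14 against PANETH, ended when free RNA was subtracted, with a log2 difference of -0.046. Lower in PANETH-PRE than in all 11 other classes were 4 genes: the histone gene Hist1h2bc with 31.8 and 25.2 CPM, the lipid peroxidase Gpx4 with 65.1 and 82.2 CPM, the G protein subunit Gnb1 with 78.9 and 102 CPM and Prr13 with 61.6 and 62.7 CPM.

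**Figure D4:**
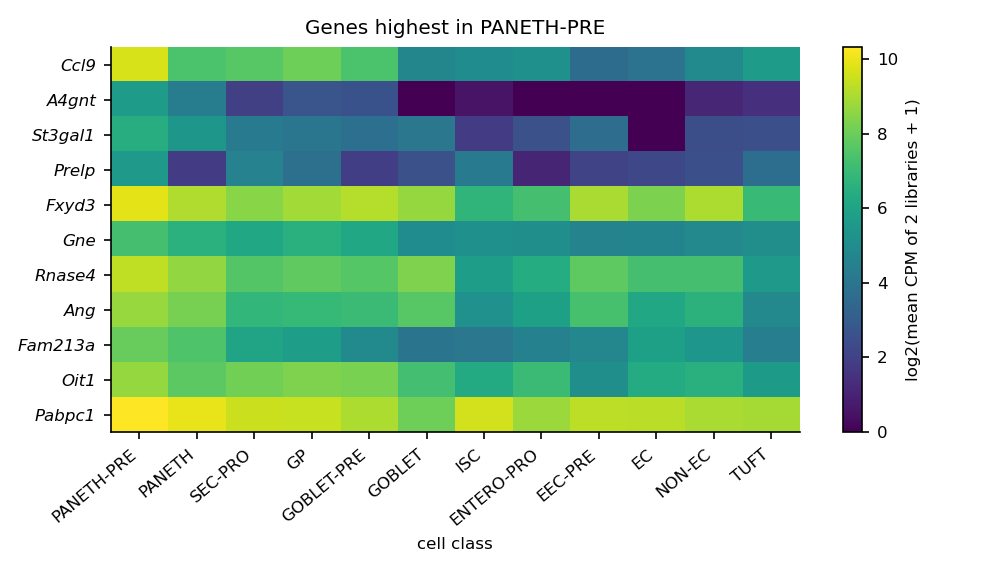
Mean level over both libraries, as log2(mean CPM + 1), of the 11 genes that were higher in PANETH-PRE than in every other class, with PANETH-PRE in the first column. Ccl9 and A4gnt contrast most with the neighbouring columns, and PANETH is the next highest class for A4gnt, St3gal1, Gne, Rnase4, Ang, Fam213a and Pabpc1.

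Antimicrobial and granule genes were mostly higher in PANETH-PRE than in SEC-PRO, GP and GOBLET-PRE. Alpha-defensins were among the counts from which classes were made, so their calls describe the class and do not test it. For comparison, 11.7%, 8.8% and 13.9% of all genes were higher than in SEC-PRO, GP and GOBLET-PRE, and 5.21% were lower than in PANETH. Of the 14 alpha-defensins, 14 were higher and 0 lower than in SEC-PRO, 14 higher and 0 lower than in GP, 14 higher and 0 lower than in GOBLET-PRE and 0 higher and 13 lower than in PANETH, with median log2 differences of 4.94, 4.79, 4.82 and -3.52 in that order. Of 9 other granule and secreted proteins, 8 were higher and 0 lower than in SEC-PRO, 6 higher and 1 lower than in GP, 5 higher and 1 lower than in GOBLET-PRE and 0 higher and 5 lower than in PANETH. Reg3g, a bactericidal lectin, had 1473 and 1918 CPM in PANETH-PRE and 10265 and 11560 CPM in PANETH. Pla2g2f, a secreted phospholipase, had 107 and 114 CPM in PANETH-PRE, 146 and 159 CPM in PANETH and 5.62 and 6.4 CPM in SEC-PRO, with a log2 difference of -0.46 ± 0.15 against PANETH. Retnlb, a bactericidal resistin-like protein, had 258 and 255 CPM in PANETH-PRE and 3.49 and 11.5 CPM in SEC-PRO (log2 difference 5.30 ± 0.51). Among abundant genes (an average log2 CPM of 5 or more) outside the fixed markers and the unnamed models, Defa35, Defa23, Defa5 and Defa29 were among those farthest below PANETH, with Defa23 at -4.27 ± 0.27, and in Pnliprp2 at -3.07 ± 0.34. These values are without subtraction of free RNA. With free RNA subtracted, 8 alpha-defensins were lower than in PANETH and 5 of the other granule genes higher than in SEC-PRO. Without the library term 2 of the other granule genes were lower than in PANETH.

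Most transcription factors of the secretory branch did not pass the test, but a larger share than over all genes was called higher in PANETH-PRE. Of 22 tested, 6 were higher and 1 lower than in SEC-PRO, 4 higher and 2 lower than in GP, 6 higher and 3 lower than in GOBLET-PRE and 3 higher and 0 lower than in PANETH. The shares of all genes that were higher were 11.7%, 8.8%, 13.9% and 2.79% in that order. Those lower were 15.3%, 5.68%, 10% and 5.21%. Sox9 had 268 and 274 CPM in PANETH-PRE, 279 and 262 CPM in PANETH and 109.7 and 113 CPM in SEC-PRO, a log2 difference of 0.00 ± 0.13 against PANETH and 1.29 ± 0.13 against SEC-PRO. The difference of Sox9 from PANETH was smaller than its SE. Atoh1 had 148 and 105 CPM in PANETH-PRE and 110.5 and 92.1 CPM in SEC-PRO, which did not pass the test (0.32 ± 0.18). Bhlha15 (Mist1), a factor of secretory cell architecture, had 114 and 95.9 CPM in PANETH-PRE, 131 and 140.3 CPM in PANETH and 20.4 and 25.3 CPM in SEC-PRO (log2 difference 2.21 ± 0.17). Spdef, needed for goblet and Paneth maturation, had 181 and 178 CPM in PANETH-PRE and 81.3 and 106 CPM in PANETH (0.94 ± 0.15). Creb3l1, a membrane-bound factor of secretory cells, had 272 and 281 CPM in PANETH-PRE and 107 and 126 CPM in PANETH (1.25 ± 0.16), and Etv5 had 19.4 and 20.9 CPM in PANETH-PRE and 2.74 and 3.03 CPM in PANETH (2.79 ± 0.51). Spdef, Creb3l1 and Etv5 were the factors higher in PANETH-PRE than in PANETH among those named.

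Among crypt niche ligands, Wnt3 (ENSMUSG00000000125, chr11:103774150-103817957, plus) was high in PANETH-PRE. It had 143 and 130.5 CPM in PANETH-PRE, 212 and 189.7 CPM in PANETH, 20.2 and 19.7 CPM in SEC-PRO and 5.08 and 5.07 CPM in GOBLET-PRE, with log2 differences of -0.55 ± 0.14 against PANETH, 2.78 ± 0.16 against SEC-PRO and 4.76 ± 0.17 against GOBLET-PRE. Egf, the growth factor, had 15.2 and 11.5 CPM in PANETH-PRE and 1.55 and 2.3 CPM in SEC-PRO (2.81 ± 0.47). Dll1 had 42.2 and 29.6 CPM in PANETH-PRE, 85.1 and 70.6 CPM in SEC-PRO and 14.6 and 15.9 CPM in PANETH, below SEC-PRO and above PANETH. Over the 9 niche ligands tested, 2 were higher and 0 lower than in SEC-PRO, 2 higher and 3 lower than in GOBLET-PRE and 1 higher and 1 lower than in PANETH. Of 16 receptor and signalling genes of Paneth development, 7 were higher and 3 lower than in SEC-PRO, 5 higher and 3 lower than in GOBLET-PRE and 1 higher and 0 lower than in PANETH. The count above SEC-PRO was 4 without the library term. Beside these 2 lists, 11.7% of all genes were higher and 15.3% lower than in SEC-PRO. Against GOBLET-PRE the shares were 13.9% and 10%, and against PANETH 2.79% and 5.21%. Kit had 223 and 262 CPM in PANETH-PRE and 133 and 162 CPM in PANETH (0.73 ± 0.14). Fgfr2, a fibroblast growth factor receptor, had 34.6 and 36.8 CPM in PANETH-PRE and 60.7 and 71.1 CPM in SEC-PRO (-0.88 ± 0.18).

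Many targets of Wnt signalling were higher in PANETH-PRE than in the secretory classes outside the Paneth branch. Of the 16 tested, 7 were higher and 0 lower than in SEC-PRO, 10 higher and 0 lower than in GP, 13 higher and 0 lower than in GOBLET-PRE, 0 higher and 2 lower than in PANETH and 6 higher and 5 lower than in ISC. The median log2 differences were 1.06, 1.07, 1.78, 0.05 and -0.18 in that order. The shares of all genes that were higher were 11.7%, 8.8%, 13.9%, 2.79% and 21.5% in the same order. Those lower were 15.3%, 5.68%, 10%, 5.21% and 24.8%. Ephb3, the receptor that keeps Paneth cells at the crypt base, had 94.2 and 110.3 CPM in PANETH-PRE and 12.4 and 16.4 CPM in SEC-PRO, a log2 difference of 2.84 ± 0.18, and differed by 4.12 ± 0.18 against GOBLET-PRE. Axin2, a feedback inhibitor, had 36 and 38.2 CPM in PANETH-PRE and 112 and 118 CPM in ISC (-1.63 ± 0.15), so not all targets were at stem cell levels. The feedback inhibitor Nkd1 and the R-spondin receptor Lgr4 were the 2 targets lower than in PANETH, Lgr4 with 122 and 138 CPM in PANETH-PRE and 229 and 231 CPM in PANETH. Of 21 components of the pathway, 3 were higher and 0 lower than in SEC-PRO, 4 higher and 0 lower than in GOBLET-PRE and 0 higher and 0 lower than in PANETH. The counts of components that were higher lay near the shares of all genes.

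Stem cell genes included Lgr5, the R-spondin receptor of crypt base stem cells. Lgr5 had 51.2 and 57.7 CPM in PANETH-PRE, 77.6 and 38.7 CPM in PANETH, 59.3 and 36.3 CPM in ISC, 4.46 and 7.68 CPM in SEC-PRO and 1.12 and 1.09 CPM in GOBLET-PRE. Its log2 difference was 3.22 ± 0.32 against SEC-PRO and 5.64 ± 0.37 against GOBLET-PRE, both past the threshold, and -0.06 ± 0.27 against PANETH and 0.24 ± 0.22 against ISC, which were not. Lgr5 was seen in 9.73% and 9.33% of thinned PANETH-PRE cells (24.3% and 20.6% with all UMIs), against 0.177% and 0.155% of GOBLET-PRE cells. Olfm4, another stem cell gene, had 188 and 188 CPM in PANETH-PRE and 1811 and 847 CPM in ISC. Lgr5 and Olfm4 thus did not move together, and the other fixed stem cell markers are not printed here. Of 9 further crypt base genes, 5 were higher and 0 lower than in SEC-PRO, 8 higher and 0 lower than in GOBLET-PRE, 0 higher and 0 lower than in PANETH and 2 higher and 3 lower than in ISC. Of 9 Notch receptors and targets, 0 were higher and 0 lower than in SEC-PRO and 1 higher and 5 lower than in ISC. The shares over all genes were 11.7% higher and 15.3% lower against SEC-PRO and 21.5% higher and 24.8% lower against ISC. They were 13.9% and 10% against GOBLET-PRE and 2.79% and 5.21% against PANETH.

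Genes of the cell cycle were low in PANETH-PRE. Of 30 genes of DNA replication, 0 were higher and 29 lower than in SEC-PRO, 1 higher and 0 lower than in GP, 12 higher and 0 lower than in GOBLET-PRE and 0 higher and 1 lower than in PANETH. Of 29 genes of mitosis, 0 were higher and 29 lower than in SEC-PRO, 1 higher and 2 lower than in GP, 2 higher and 0 lower than in GOBLET-PRE and 0 higher and 7 lower than in PANETH, with medians of -4.53 against SEC-PRO and -1.33 against PANETH. The step to SEC-PRO was the steepest of these. Mki67 had 40.8 and 49 CPM in PANETH-PRE and 687 and 607 CPM in SEC-PRO (-3.86 ± 0.19), and was seen in 7.96% and 4.67% of thinned PANETH-PRE cells, against 64% and 58.5% of SEC-PRO and 3.77% and 5.51% of GOBLET-PRE cells. Nusap1, a spindle protein, had 2.08 and 3.6 CPM in PANETH-PRE and 109.9 and 145 CPM in SEC-PRO (-5.48 ± 0.28). Free RNA would give 79.3% and 43.6% of the Mki67 UMIs of PANETH-PRE, and with free RNA subtracted the mitosis median against PANETH became 0.53, with 0 genes lower (3 without the library term), so no direction is given for mitosis between the Paneth classes. Gadd45g, a growth arrest gene, had 108 and 110.3 CPM in PANETH-PRE, 17.6 and 26.1 CPM in SEC-PRO and 423 and 353 CPM in PANETH. Of 17 cell cycle inhibitors and arrest genes, 6 were higher and 4 lower than in SEC-PRO and 0 higher and 5 lower than in PANETH. Beside these lists, 11.7% of all genes were higher and 15.3% lower than in SEC-PRO. The shares were 8.8% and 5.68% against GP, 13.9% and 10% against GOBLET-PRE and 2.79% and 5.21% against PANETH.

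Much of the machinery that makes and ships secreted proteins was higher in PANETH-PRE than in SEC-PRO and ISC. Of 25 ER folding genes, 14 were higher and 2 lower than in SEC-PRO, 9 higher and 3 lower than in GP, 4 higher and 3 lower than in GOBLET-PRE, 7 higher and 7 lower than in PANETH and 25 higher and 0 lower than in ISC. P4hb, a disulfide isomerase, had 1221 and 1146 CPM in PANETH-PRE and 546 and 578 CPM in SEC-PRO. Against PANETH the list split: the chaperone Hsp90b1 had 1227 and 1119.7 CPM in PANETH-PRE and 741 and 629 CPM in PANETH (0.78 ± 0.09), while Dnajb9, a target of Xbp1, had 129 and 131 CPM in PANETH-PRE and 217 and 191 CPM in PANETH (-0.65 ± 0.14). Of 30 genes of translocation and transport to the Golgi, 21 were higher and 0 lower than in SEC-PRO, 4 higher and 4 lower than in GOBLET-PRE, 2 higher and 6 lower than in PANETH and 27 higher and 0 lower than in ISC. Of 18 genes of granule traffic, 9 were higher and 0 lower than in SEC-PRO, 2 higher and 6 lower than in GOBLET-PRE and 1 higher and 3 lower than in PANETH. Without the library term 10 translocation and transport genes and 5 granule traffic genes were higher than in SEC-PRO, and 14 translocation and transport genes were with free RNA subtracted. In these 2 settings, in that order, the genes lower than in GOBLET-PRE were 1 and 0 of the translocation and transport genes and 3 and 1 of the granule traffic genes, and lower than in PANETH 1 and 11 of the translocation and transport genes. Of the ER folding genes, 3 were higher and 0 lower than in GP under either setting, and 3 higher and 1 lower than in PANETH without the library term. With TMM factors from all genes 6 of them were lower than in GOBLET-PRE. Copz2, a coatomer subunit, had 54 and 44 CPM in PANETH-PRE, 148 and 133 CPM in PANETH and 4.85 and 2.81 CPM in SEC-PRO. Among all genes, 11.7% were higher and 15.3% lower than in SEC-PRO, and 21.5% and 24.8% than in ISC. The shares were 8.8% and 5.68% against GP, 13.9% and 10% against GOBLET-PRE and 2.79% and 5.21% against PANETH. Against GOBLET-PRE the counts of ER folding and of translocation and transport genes lay near these shares.

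Several lysosomal and zinc genes lay between the progenitor and the mature class. Of 26 lysosome and autophagy genes, 16 were higher and 0 lower than in SEC-PRO, 7 higher and 1 lower than in GOBLET-PRE and 1 higher and 12 lower than in PANETH. Lamp2, a lysosomal membrane protein, had 179 and 168 CPM in PANETH-PRE, 382 and 407 CPM in PANETH (-1.19 ± 0.12) and 55.4 and 54 CPM in SEC-PRO (1.66 ± 0.13). Atg7, an autophagy enzyme needed for normal Paneth granules in mice, had 40.8 and 49 CPM in PANETH-PRE and 110.5 and 107 CPM in PANETH. Of 15 zinc and metal genes, 7 were higher and 1 lower than in SEC-PRO and 0 higher and 4 lower than in PANETH. Beside these lists, 11.7% of all genes were higher and 15.3% lower than in SEC-PRO. The shares were 13.9% and 10% against GOBLET-PRE and 2.79% and 5.21% against PANETH. Slc30a2, which carries zinc into secretory granules, had 34.6 and 41.8 CPM in PANETH-PRE, 83.1 and 85 CPM in PANETH and 2.33 and 4.09 CPM in SEC-PRO. For Lamp2, Slc30a2 and Copz2 the PANETH-PRE values of both libraries lay between those of the other 2 classes without overlap.

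Some goblet features were weaker than in GOBLET-PRE and stronger than in PANETH. Of 20 mucin glycosylation genes, 1 was higher and 7 lower than in GOBLET-PRE, 3 higher and 1 lower than in SEC-PRO and 6 higher and 0 lower than in PANETH. Without the library term 2 were lower than in GOBLET-PRE and 2 higher than in PANETH, and with TMM factors from all genes 12 were lower than in GOBLET-PRE. Chst4, a sulfotransferase, had 15.9 and 14.4 CPM in PANETH-PRE and 71.5 and 72.6 CPM in GOBLET-PRE (-2.25 ± 0.22). Of 10 goblet mucus and secreted genes outside the fixed markers, 2 were higher and 5 lower than in GOBLET-PRE. Of the same genes 4 were higher and 1 lower than in PANETH, and those higher include Ccl9 and Tpsg1, which are not mucus genes. For comparison, 11.7% of all genes were higher and 15.3% lower than in SEC-PRO. Against GOBLET-PRE these shares were 13.9% and 10%, and against PANETH 2.79% and 5.21%. The count of glycosylation genes higher than in SEC-PRO lay near the share of all genes. Among abundant genes that passed the test, the farthest below GOBLET-PRE were Scin, an actin-severing protein, with 15.9 and 31 CPM in PANETH-PRE and 508 and 551 CPM in GOBLET-PRE (-4.53 ± 0.46), and Krt20, a keratin of mature epithelium (-3.77 ± 0.43). Among abundant genes outside the defensins and the fixed markers, Fam46c, a poly(A) polymerase that stabilises messages of secreted proteins, was the farthest above GOBLET-PRE, with 268 and 255 CPM in PANETH-PRE and 6.26 and 4.52 CPM in GOBLET-PRE (5.50 ± 0.17). Scin was also the farthest below GP among abundant genes (-3.40 ± 0.49). Above PANETH, the largest difference among such abundant genes outside the fixed markers was in Cd177, a surface protein, with 295 and 339 CPM in PANETH-PRE and 41.1 and 72.8 CPM in PANETH (2.47 ± 0.16), followed by Ccl9, the sialyltransferase St3gal6 (2.21 ± 0.33) and the phospholipase Pla2g10 (1.99 ± 0.31).

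Ribosome and respiration genes differed from different neighbours. Of 30 ribosomal protein genes, 24 were higher and 0 lower than in PANETH, 1 higher and 0 lower than in SEC-PRO and 0 higher and 17 lower than in ISC. Without the library term 8 ribosomal protein genes were higher than in PANETH and 7 lower than in ISC, and 3 were lower than in ISC with free RNA subtracted. Of 30 ribosome biogenesis genes, 21 were higher and 0 lower than in GOBLET-PRE, 1 higher and 9 lower than in SEC-PRO and 3 higher and 0 lower than in PANETH. Without the library term 0 of these were lower than in SEC-PRO (3 with free RNA subtracted) and 0 higher than in PANETH. Of 30 nuclear genes of oxidative phosphorylation, 1 was higher and 21 lower than in SEC-PRO, 1 higher and 20 lower than in GP, 0 higher and 21 lower than in GOBLET-PRE, 0 higher and 3 lower than in PANETH and 1 higher and 29 lower than in ISC. The differences were moderate, with medians of -0.44, -0.39 and -0.35 against the first 3 classes, and 8, 3 and 5 genes were lower without the library term. With free RNA subtracted 9, 6 and 5 were lower, and against PANETH 3 were higher, while 0 were lower than in PANETH without the library term. Transcripts of the mitochondrial genome ran otherwise: of 13, 0 were higher and 1 lower than in SEC-PRO, 0 higher and 0 lower than in GOBLET-PRE and 0 higher and 10 lower than in PANETH. With free RNA subtracted, and likewise without the library term, the last of these counts was 4. Among all genes, 11.7% were higher and 15.3% lower than in SEC-PRO, and 21.5% and 24.8% than in ISC. The shares were 8.8% and 5.68% against GP, 13.9% and 10% against GOBLET-PRE and 2.79% and 5.21% against PANETH.

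Immediate-early genes moved with several of these comparisons. Of 17 immediate-early and dissociation stress genes, 16 were higher and 0 lower than in SEC-PRO, 13 higher and 0 lower than in GP, 4 higher and 1 lower than in GOBLET-PRE, 1 higher and 4 lower than in PANETH and 16 higher and 0 lower than in ISC. Dusp1, a phosphatase of that response, had 98.3 and 123 CPM in PANETH-PRE, 97.7 and 167 CPM in PANETH, 22.9 and 29.9 CPM in SEC-PRO and 6.11 and 16.1 CPM in ISC. Nr4a1 had 61.6 and 29.6 CPM in PANETH-PRE and 12.4 and 10.7 CPM in SEC-PRO, with a wide gap between the libraries. With free RNA subtracted 7 genes of this list were higher than in GP (6 without the library term). Against GOBLET-PRE the count of higher genes became 1 without the library term, with free RNA subtracted or with TMM factors from all genes, and 0 were lower than in PANETH without the library term. All libraries went through the same enzyme digestion, and the part of this response in the other differences was not tested. For comparison, 11.7% of all genes were higher and 15.3% lower than in SEC-PRO, and 21.5% and 24.8% than in ISC. The shares were 8.8% and 5.68% against GP, 13.9% and 10% against GOBLET-PRE and 2.79% and 5.21% against PANETH.

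**Figure D5:**
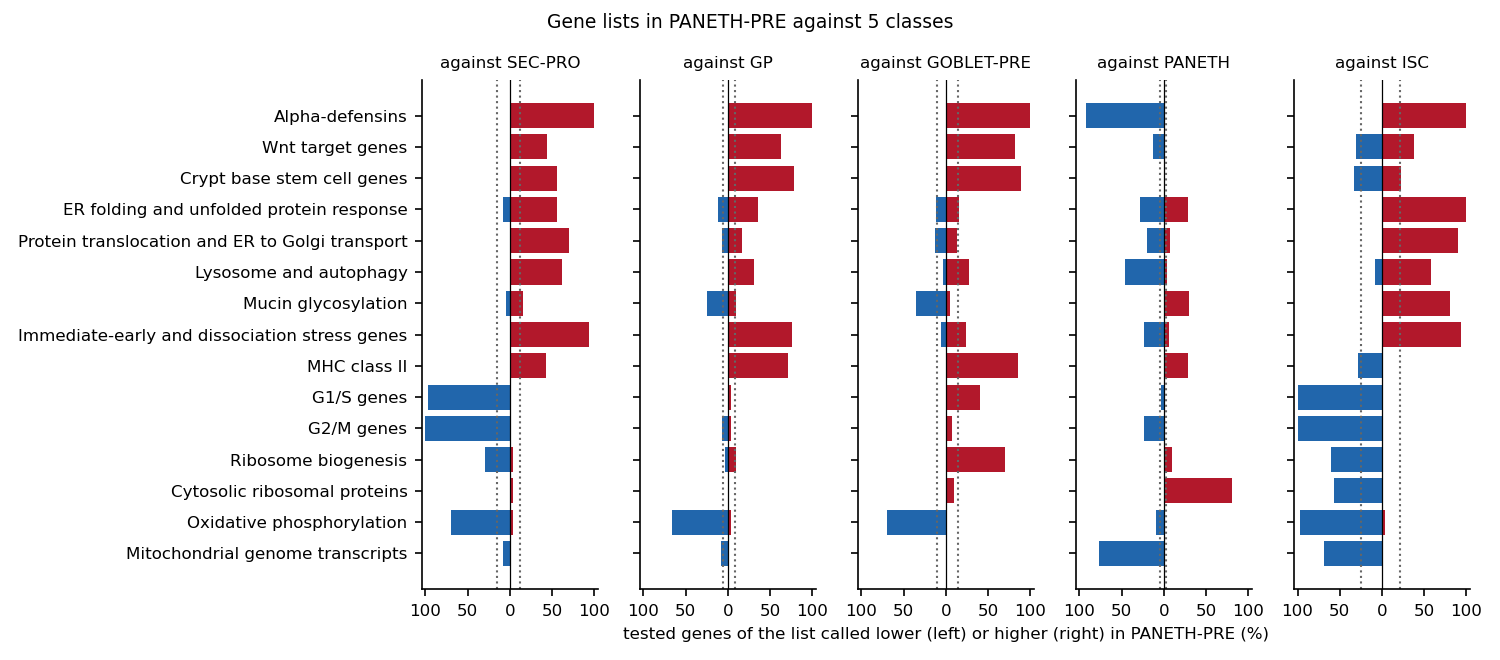
Percent of the tested genes of 15 lists called lower (blue, left) or higher (red, right) in PANETH-PRE than in each of 5 classes, with dotted lines at the share over all 10946 genes. Alpha-defensins are higher than in the 4 classes outside the Paneth branch and lower than in PANETH, cell cycle lists are lower than in SEC-PRO and ISC, and Wnt targets are higher than in SEC-PRO, GP and GOBLET-PRE.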

How the data were processed

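Red (Tom+), DAPI-negative crypt cells of the ileum were released with EDTA, digested with TrypLE and captured with the 10x Genomics 3′ v3.1 kit, per the labels' protocols. Reads were counted by Cell Ranger 3.0.2 with STAR on mm10, per the submitters' processing notes. Raw UMI counts were deposited for 31053 genes and all barcodes, with no cell filter. A deposited table gives the cells the authors kept, their class, their UMI and gene counts and the percent of mitochondrial UMIs; the sources used here do not give how classes were assigned. Listed cells had at most 3000 genes and under 7% mitochondrial UMIs. Replicate 1 had 66021021 UMIs, with 32656481 in listed cells and 1705121 in PANETH-PRE. Replicate 2 had 40869800, with 27014983 in listed cells and 1593581 in PANETH-PRE. The table's UMI totals equalled those of the matrices in 77.6% and 73.9% of cells and differed by at most 11 and 25 UMIs elsewhere.

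Raw counts were summed per class and library and analysed in R 4.3.3 with edgeR 4.0.16: filterByExpr kept 10994 genes, TMM factors used only genes whose average log2 CPM was 6 or more, and the robust quasi-likelihood model held class and library (11 residual degrees of freedom, median biological coefficient of variation 0.0641). SE values are the log2 difference divided by the square root of F. Differences between libraries were correlated between PANETH-PRE and other classes (median 0.362, range 0.105 to 0.558 over 11 pairs and 3827 genes, which are not independent), so the replicate number was kept as a term. On simulated data for PANETH-PRE against SEC-PRO, with 10788 genes of which 200 were changed, 31% of genes with a log2 change of 0.5 and 92% with a change of 1 were called, beside 12 false calls. DESeq2 1.42.0 and scanpy 1.11.5 (Scrublet) served alternatives. Cells were thinned to 2000 UMIs for shares of cells, with exact (Clopper-Pearson) intervals.

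The class, gene lists, markers and named-gene rule were chosen with earlier results of these data known. Genes named are those higher or lower than in all 11 classes (at most 20 and 8), the 8 largest differences each way against SEC-PRO, GP, GOBLET-PRE, PANETH and ISC among abundant genes, the 3 list members with the smallest p, and Atoh1, Sox9, Lgr5, Mki67, Kit, Dll1, Wnt3, Spdef, Xbp1 and Gfi1; not all are printed, and genes followed over bins of cells were chosen after their values were seen. Markers, mitochondrial, ribosomal protein and unnamed genes were left out of the rule. Genes higher or lower than in all classes, and those with the largest differences, also had to have that direction in both libraries. Coordinates and gene IDs are from GENCODE M21 on mm10, in which 30934 of 31053 matrix IDs were found, and promoters are from RefSeq. Free RNA was read from barcodes with at most 50 UMIs. A gene that the naming rule chose is not reported here.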

Additional observations from a re-analysis of the deposited data

How the results depend on the processing

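Counts of genes that differed from PANETH-PRE depended on depth and on the library term, while single named genes seldom turned. With cells thinned to 2000 UMIs, where fewer genes were tested, the calls were 1473 against SEC-PRO (2953 with all UMIs), 700 against GP (1585), 1296 against GOBLET-PRE (2620), 295 against PANETH (875), 3010 against ISC (5070), 1506 against EC (2690), 1459 against EEC-PRE (2446), 1986 against ENTERO-PRO (3494), 2135 against NON-EC (3568) and 1808 against TUFT (3134). The main model blocked on the replicate number. With no replicate block the calls were 1766 against SEC-PRO, 627 against GP (449 higher and 178 lower), 1353 against GOBLET-PRE and 273 against PANETH, and with the block they were as given in brackets above. The 2 added alternatives were chosen after seeing the data. Subtracting free RNA at the share read from defensins left 945 calls against GP and gave 1580 against PANETH; against PANETH it turned Cenpe to 0.53 and Fam213a to -0.046 on the log2 scale. The cause of these changes was not tested. Leaving out the 8% of cells with the highest Scrublet scores kept all 11 counts within 1.5 times. Relative log expression factors gave 1121 higher and 1411 lower calls against EC and 1445 and 1830 against NON-EC, and moved the median of all genes by 0.21 in both.

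Of 711 differences of named genes, 673 stayed on the same side of the threshold with DESeq2, 691 with TMM from all genes, 698 with relative log expression, 704 without the low-count filter, 600 without the block and 710 without the cells Scrublet marked, and none of these turned any of the 629 that were called. In each library alone, with no test, the 629 also had the reported direction. For genes named as highest, lowest or largest differences this was a condition of naming, so it is no independent check. Of the 82 that were not called, 3 turned without replicate 1 and 12 without replicate 2, and without them 145 and 127 of the 711 moved by more than 1 SD between the libraries. Subtracting free RNA from defensins left 607 of 702 on their side. Counts of list members that moved by over 1.5 times and by 3 genes or more without the block, with free RNA subtracted or with another scaling are given beside each list. Depth limits genes of a few CPM: 13 values over the alternative settings could not be estimated. The planned bound on free RNA was the largest share the PANETH-PRE sum can hold. It came out at 0 in replicate 1 and 8.66% in replicate 2. The shares read from defensins, 10.3% and 8.80%, lie above it. With the planned subtraction the calls were 1671 against GP and 1033 against PANETH, beside 1585 and 875 in the main fit. Counts given elsewhere with free RNA subtracted use the share read from defensins.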

Other observations

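Several MHC class II genes, which present antigen, were higher in PANETH-PRE than in other secretory classes. Of the 7 tested, 3 were higher and 0 lower than in SEC-PRO, 5 higher and 0 lower than in GP, 6 higher and 0 lower than in GOBLET-PRE, 2 higher and 0 lower than in PANETH and 0 higher and 2 lower than in ISC. With free RNA subtracted 2 were higher than in GP. The invariant chain Cd74 had 1078 and 903 CPM in PANETH-PRE, 574 and 587 CPM in SEC-PRO and 1334 and 962 CPM in ISC. H2-Aa had 265 and 206 CPM in PANETH-PRE and 72.3 and 70.6 CPM in GOBLET-PRE (log2 difference 1.73 ± 0.26). Ptprc and Cd3e of immune cells had 0 UMIs in PANETH-PRE. The immunoproteasome gene Psmb8 differed the other way, with 87.2 and 72.8 CPM in PANETH-PRE and 188 and 141 CPM in SEC-PRO (-1.04 ± 0.14), while B2m, the light chain of MHC class I, had 551 and 371 CPM in PANETH-PRE and 322 and 240.2 CPM in SEC-PRO (0.70 ± 0.11). Of 16 interferon response genes, 2 were higher and 4 lower than in SEC-PRO and 3 higher and 7 lower than in GOBLET-PRE, where 3 were lower without the library term. Among all genes, 11.7% were higher and 15.3% lower than in SEC-PRO, and 13.9% higher and 10% lower than in GOBLET-PRE. Against GP the shares were 8.8% and 5.68%, against PANETH 2.79% and 5.21% and against ISC 21.5% and 24.8%.

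Some single genes fell outside the main lists. The log2 difference of Sct was 1.41 ± 0.28 against PANETH and 0.94 ± 0.23 against SEC-PRO. The growth factor Hbegf, the adhesion receptor Adgrg7, the disulfide isomerase Pdia5 and the tryptase Tpsg1 were higher in PANETH-PRE than in PANETH. Pdia5 had 251 and 195 CPM in PANETH-PRE and 64.8 and 74.3 CPM in PANETH (1.69 ± 0.27), and Tpsg1 190.4 and 169 CPM in PANETH-PRE and 39.3 and 70.6 CPM in PANETH (1.69 ± 0.26). Of 12 claudins and simple keratins, 2 were higher and 6 lower than in GOBLET-PRE and 1 higher and 1 lower than in PANETH. Of 11 feedback genes of EGF and BMP signalling, 2 were higher and 2 lower than in SEC-PRO, 3 higher and 4 lower than in GOBLET-PRE and 3 higher and 1 lower than in PANETH. Over all genes, 11.7% were higher and 15.3% lower than in SEC-PRO, 13.9% and 10% than in GOBLET-PRE and 2.79% and 5.21% than in PANETH.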
